A study of Mus musculus with 20 samples.

Results

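The glutathione transferases and the enzymes that make, recycle and spend glutathione were followed here in mouse liver as 34 genes, found by symbol among the 53599 genes of both count tables, where 34 of 34 were present. They comprised 4 transferases of the alpha class, 7 of the mu class, 2 of the pi class and 3 of the theta class, 5 of the kappa, omega and zeta classes with Gstcd, 3 microsomal transferases, 5 genes of glutathione synthesis, recycling and turnover, 2 glyoxalases and 3 glutathione peroxidases. Of these, 32 passed the filter on low counts and were tested in every comparison. The other 2, Mgst2, a microsomal transferase, and Ggt1, a γ-glutamyltransferase that starts the breakdown of glutathione outside the cell, did not exceed 0.365 CPM (counts scaled for library size and composition) in any library.

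Total RNA of bulk liver was sequenced from mice without PPARα, a nuclear receptor for fatty acids (KO), and from mice that expressed the human form of this receptor (hPPARa). From weaning they drank water containing 8 µM perfluorooctanoic acid (PFOA, a persistent fluorinated surfactant) and 0.5% sucrose, or water with 0.5% sucrose alone (vehicle), for 6 to 7 weeks, and the diet of all groups drew 33.5% of its energy from fat, 51.8% from carbohydrate and 14.7% from protein. The KO livers on PFOA gave 3 male and 3 female libraries and those on vehicle 3 male and 1 female library. Among hPPARa livers, 3 male and 2 female libraries were on PFOA and 2 male and 3 female libraries on vehicle. The sources used here give neither the strain nor the promoter of the human receptor nor the deleted part of Ppara. Whether each library is a different mouse is not stated, and p-values therefore cover the spread between libraries, which may be technical.

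Glutathione is a tripeptide thiol that hepatocytes hold at high concentration. The cytosolic transferases join it to reactive electrophiles, the products are carried out of the cell by efflux pumps, and the peroxidases and glutathione reductase use and restore the reduced form. In rodent liver, transferases of the alpha and mu classes are known to respond to CAR and PXR, receptors for foreign compounds, and to NRF2, the factor that responds to electrophilic stress.

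Total counts ran from 14973673 to 17953860 per library. Ppara itself was counted in every library, at 8.42 to 25.1 CPM in KO livers and 16.9 to 39.6 CPM in hPPARa livers, and since the deleted part is not given, these counts do not check the genotype labels. Transcripts of the other sex were present in 3 KO libraries, called the mixed-sex libraries here. They include the only KO female library on vehicle, so without them the PFOA effect in KO rests on fewer libraries, all male. Xist was at 30.8 CPM in KO male PFOA replicate 2, against at most 4.4 CPM in the other 10 male libraries, and KO female PFOA replicate 2 and KO female vehicle replicate 1 had 1.86 to 4.06 CPM of the Y-linked gene Ddx3y, against at most 0.415 CPM in the other 7 female libraries. The hepatocyte markers Alb, Ttr, Apoa1 and 6 others summed to between 68500 and 208000 CPM, with 0 of the 9 absent from any group.

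PFOA raised transferases of the alpha, mu and theta classes in both genotypes, and the rise was larger in KO livers for the mu class genes Gstm2 and Gstm3 and the theta class gene Gstt3. In KO livers 13 of the 32 tested genes rose and 1 fell at an adjusted p below 0.05 (quasi-likelihood test of edgeR with sex as a term, p adjusted over all genes tested by Benjamini-Hochberg), where 7.41% of all tested genes rose and 6.36% fell. In hPPARa livers 12 rose and 3 fell, where 12.8% of all tested genes rose and 9.76% fell. The median log2 fold change of the 32 genes was 0.427 in KO livers and 0.265 in hPPARa livers, beside −0.0162 and −0.0132 over all genes tested. The genes raised in both genotypes numbered 9, which is 69.2% of those raised in KO and 75% of those raised in hPPARa. Over the 14240 genes tested in both, the shares were 63.1% and 38.1%.

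**Figure D1:**
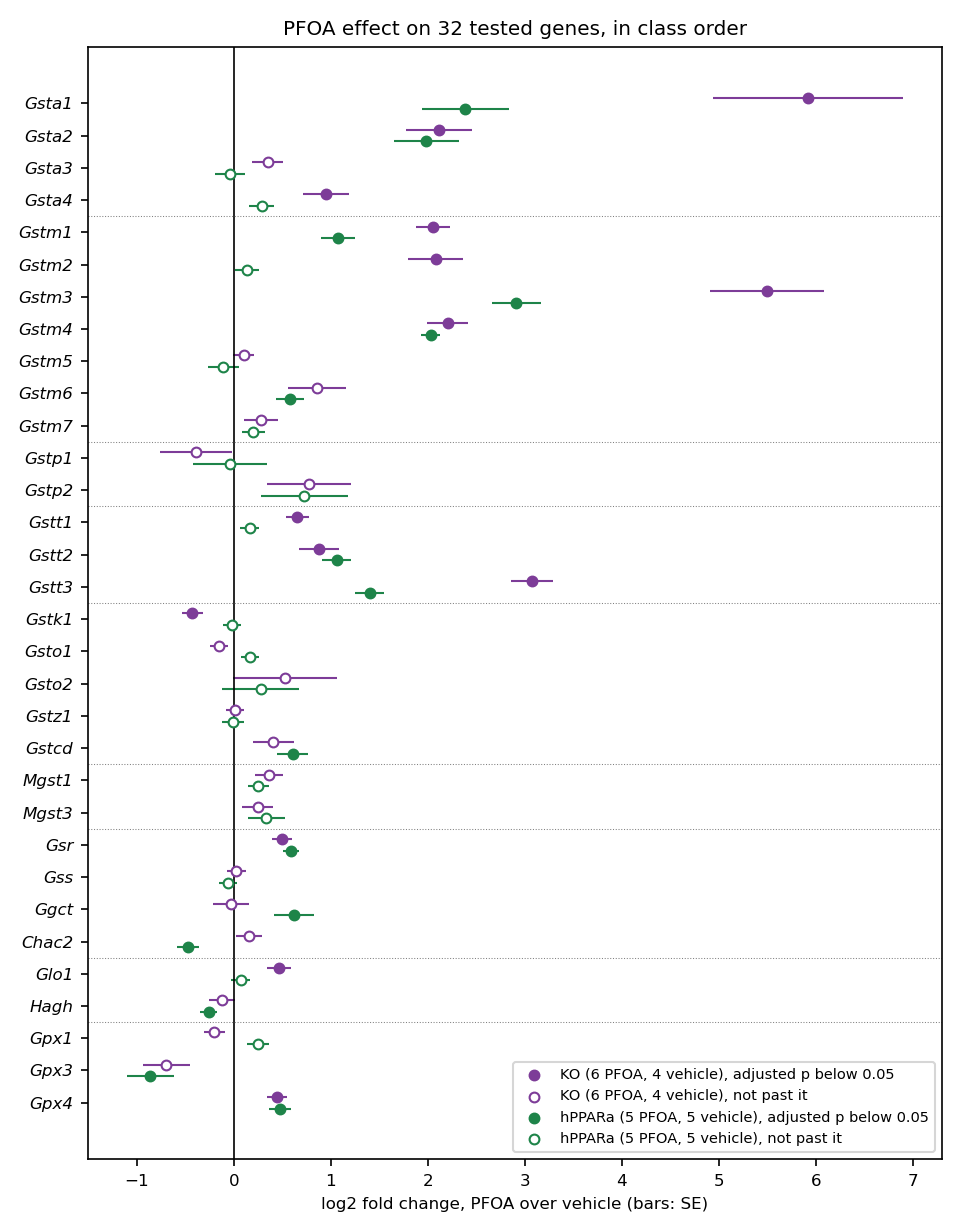
Log2 fold change of each of the 32 tested genes with PFOA against vehicle in KO livers (6 and 4 libraries) and hPPARa livers (5 and 5 libraries); the bars are standard errors, filled points have an adjusted p below 0.05 and dotted lines part the classes. The longest shifts to the right are those of Gsta1, Gstm3 and Gstt3 in KO livers.

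Summed over the 34 genes, the level was 15370 ± 2170 CPM on PFOA against 9394 ± 1131 CPM on vehicle in KO livers (SD, n = 6 and 4), and 12890 ± 1160 CPM against 9661 ± 1295 CPM in hPPARa livers (SD, n = 5 each). The ranges of the PFOA and vehicle libraries did not overlap in either genotype. The mu class accounted for the greater part of the difference, with 6260 ± 1799 CPM on PFOA against 1232 ± 138 CPM on vehicle in KO livers and 3380 ± 829 CPM against 1460 ± 216 CPM in hPPARa livers. The theta class summed to 799 ± 146 CPM on PFOA against 349 ± 81.8 CPM on vehicle in KO livers and to 796 ± 56.5 CPM against 545 ± 63.5 CPM in hPPARa livers. These sums are in counts, so long transcripts weigh more in them, and in bulk tissue more RNA per cell and more cells of a type cannot be told apart.

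**Figure D2:**
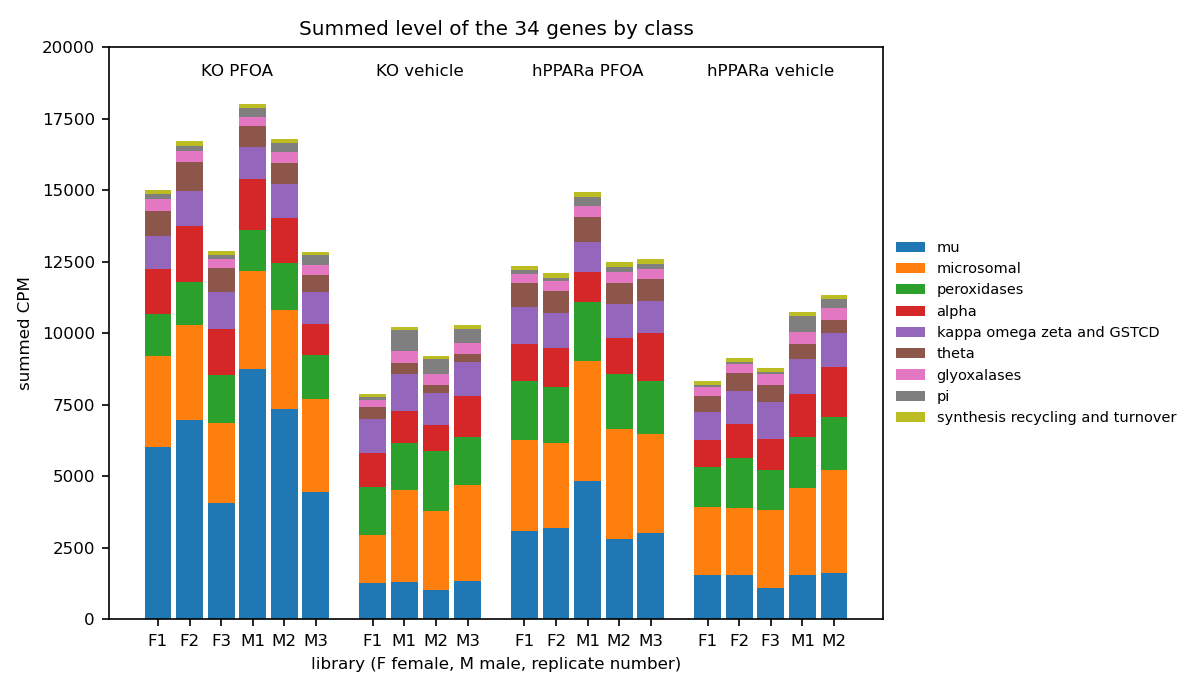
Summed CPM of the 34 genes in each of the 20 libraries, stacked by class, with the KO libraries on PFOA and on vehicle followed by the hPPARa libraries on PFOA and on vehicle. The blue segment of the mu class reaches from 4045 to 8754 CPM in KO livers on PFOA, against 1028 to 1327 CPM in KO livers on vehicle.

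The 7 mu class genes lie in 1 stretch of chromosome 3, and 4 of them rose in each genotype. The 250 bases before the start of 5 of them are shown here because these neighbours moved to different extents (RefSeq, build GRCm38.p6, 5′ to 3′ on the gene's own strand; where RefSeq gives more than 1 start, the one farthest upstream). The sequences were searched on both strands for TGACNNNGC, the core of the antioxidant response element that NRF2 binds, and capitals mark a match.
Gstm1, chr3:108017974-108018223, minus strand: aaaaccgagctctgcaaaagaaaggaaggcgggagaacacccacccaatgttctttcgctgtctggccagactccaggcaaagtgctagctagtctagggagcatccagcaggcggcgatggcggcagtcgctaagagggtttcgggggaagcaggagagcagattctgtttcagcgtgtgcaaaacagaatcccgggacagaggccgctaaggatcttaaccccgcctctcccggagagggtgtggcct
Gstm2, chr3:107986421-107986670, minus strand: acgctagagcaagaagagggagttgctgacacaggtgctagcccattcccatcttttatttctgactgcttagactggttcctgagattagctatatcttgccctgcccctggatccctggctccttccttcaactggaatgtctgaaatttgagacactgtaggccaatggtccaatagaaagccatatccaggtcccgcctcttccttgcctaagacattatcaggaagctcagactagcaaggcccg
Gstm3, chr3:107969175-107969424, minus strand: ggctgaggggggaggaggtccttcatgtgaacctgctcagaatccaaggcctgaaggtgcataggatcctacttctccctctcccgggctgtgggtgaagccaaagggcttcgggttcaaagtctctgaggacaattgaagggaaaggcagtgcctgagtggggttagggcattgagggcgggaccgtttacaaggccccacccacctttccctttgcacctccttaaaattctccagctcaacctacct
Gstm4, chr3:108044860-108045109, minus strand: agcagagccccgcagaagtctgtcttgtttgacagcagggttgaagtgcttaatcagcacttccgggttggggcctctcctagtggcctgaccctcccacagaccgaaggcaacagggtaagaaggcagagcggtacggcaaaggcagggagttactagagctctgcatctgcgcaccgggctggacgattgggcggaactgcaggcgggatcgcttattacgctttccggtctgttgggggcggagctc
Gstm5, chr3:107895604-107895853, plus strand: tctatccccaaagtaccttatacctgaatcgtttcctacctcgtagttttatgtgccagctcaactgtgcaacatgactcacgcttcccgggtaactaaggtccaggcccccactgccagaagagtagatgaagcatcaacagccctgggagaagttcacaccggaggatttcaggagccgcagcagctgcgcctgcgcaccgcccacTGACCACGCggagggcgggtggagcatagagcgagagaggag
The core was found in Gstm5 alone among these 5, with its first base 42 bases before the start. Of the 48 windows that RefSeq gives for 31 of the 34 genes, 7 held the core, in Ggct, Ggt1, Gsta3, Gstm5, Gstm7 and Mgst1, beside 3338 of all 32851 promoter windows of this length (10.2%). A match is a run of letters and does not show that a factor binds there.

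Gstm1, the mu class gene with the most counts, had 4939, 4724 and 2959 CPM in males and 4220, 4453 and 2939 CPM in females in KO livers on PFOA. On vehicle the KO livers had 1003, 860 and 1010 CPM in males and 1040 CPM in the single female library. Every KO library on PFOA was above every one on vehicle, a 4.15-fold rise (log2 fold change 2.05 ± 0.17 SE, adjusted p = 1.44e-05). In hPPARa livers the PFOA libraries had 3546, 1957 and 2137 CPM in males and 2267 and 2449 CPM in females. The hPPARa vehicle libraries had 1210 and 1258 CPM in males and 1250, 1223 and 791 CPM in females. Here too the groups stood apart, with a 2.11-fold rise (log2 fold change 1.08 ± 0.18 SE, adjusted p = 0.000844).

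Gstm3, a close relative of Gstm1 in sequence, showed the widest change of the class. The KO livers on PFOA had 3119, 2047 and 1080 CPM in males and 1239, 1884 and 618 CPM in females. Those on vehicle had 36.7, 20 and 63.3 CPM in males and 35.9 CPM in the single female library. The lowest PFOA library was at 618 CPM, where no vehicle library passed 63.3 CPM, a 45.3-fold rise (log2 fold change 5.50 ± 0.59 SE, adjusted p = 0.000951). With PFOA the hPPARa livers had 909, 456 and 517 CPM in males and 406 and 356 CPM in females. With vehicle they had 71.0 and 101 CPM in males and 46.4, 67.9 and 31.7 CPM in females. The hPPARa groups did not overlap, and the rise was 7.54-fold (log2 fold change 2.91 ± 0.26 SE, adjusted p = 3.37e-05). Within each library, Gstm3 made up a median of 25.7% of the mu class counts in KO livers on PFOA, against 2.82% on vehicle, and 16.4% against 4.41% in hPPARa livers. Of the 50-base windows, 28.8% of Gstm3, 23.1% of Gstm1, 11.5% of Gstm6 and 9.36% of Gstm2 also occur in other genes. With 100-base windows the shares are 13.8%, 7.73%, 2.41% and 0.622% in the same order. Reads of these genes could have been split or lost in counting, to an extent that these shares do not give.

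Gstm2, another mu class transferase, parted the genotypes. Its KO libraries on PFOA had 374, 307 and 208 CPM in males and 209, 295 and 210 CPM in females. Its KO libraries on vehicle had 80.3, 34.5 and 71.9 CPM in males and 70.4 CPM in the single female library. All 6 were above all 4, a 4.23-fold rise (log2 fold change 2.08 ± 0.28 SE, adjusted p = 0.00149). In hPPARa livers it had 112, 88.4 and 99.0 CPM in males and 81.8 and 86.3 CPM in females on PFOA. On vehicle it had 76.6 and 71.1 CPM in males and 98.1, 85.2 and 97.3 CPM in females. The hPPARa ranges overlapped, and the change did not pass the test (log2 fold change 0.13 ± 0.12 SE, adjusted p = 0.458).

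Gstm4 rose in both genotypes. On PFOA it had 121, 100 and 62.6 CPM in males and 93.2, 93.5 and 69.9 CPM in females in KO livers. On vehicle these had 18.2, 16.6 and 26.2 CPM in males and 18.9 CPM in the single female library. The rise was 4.61-fold (log2 fold change 2.21 ± 0.21 SE, adjusted p = 0.000115). The hPPARa libraries on PFOA had 110, 110 and 103 CPM in males and 120 and 118 CPM in females. The hPPARa libraries on vehicle had 25.9 and 26.5 CPM in males and 24.4, 28.2 and 34.6 CPM in females. The groups stood apart in each genotype, and in hPPARa the rise was 4.09-fold (log2 fold change 2.03 ± 0.10 SE, adjusted p = 1.72e-08). Gstm6 ran from 62.1 to 139 CPM on PFOA against 32.1 to 73.2 CPM on vehicle in KO livers, where it did not pass the test (log2 fold change 0.86 ± 0.30 SE, adjusted p = 0.0906), though it did with DESeq2 (adjusted p = 0.00665), when all 20 libraries were fitted jointly (adjusted p = 0.0305) and without KO male PFOA replicate 3 (adjusted p = 0.041). In hPPARa livers it ran from 85.9 to 99.1 CPM on PFOA against 34.6 to 78.6 CPM on vehicle and rose (log2 fold change 0.58 ± 0.14 SE, adjusted p = 0.0126), a call lost in that joint fit (adjusted p = 0.0831). Gstm5, a form known from brain and testis, and Gstm7 passed the test in neither genotype, with log2 fold changes between −0.11 and 0.28. With equal weight for the sexes Gstm7 was at 0.45 in KO livers and passed, a fit with 1 female library on vehicle. Within hPPARa females Gstm7 rose, with 0.34 to 0.54 over 15 alternatives, 5 of which lost the call.

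**Figure D3:**
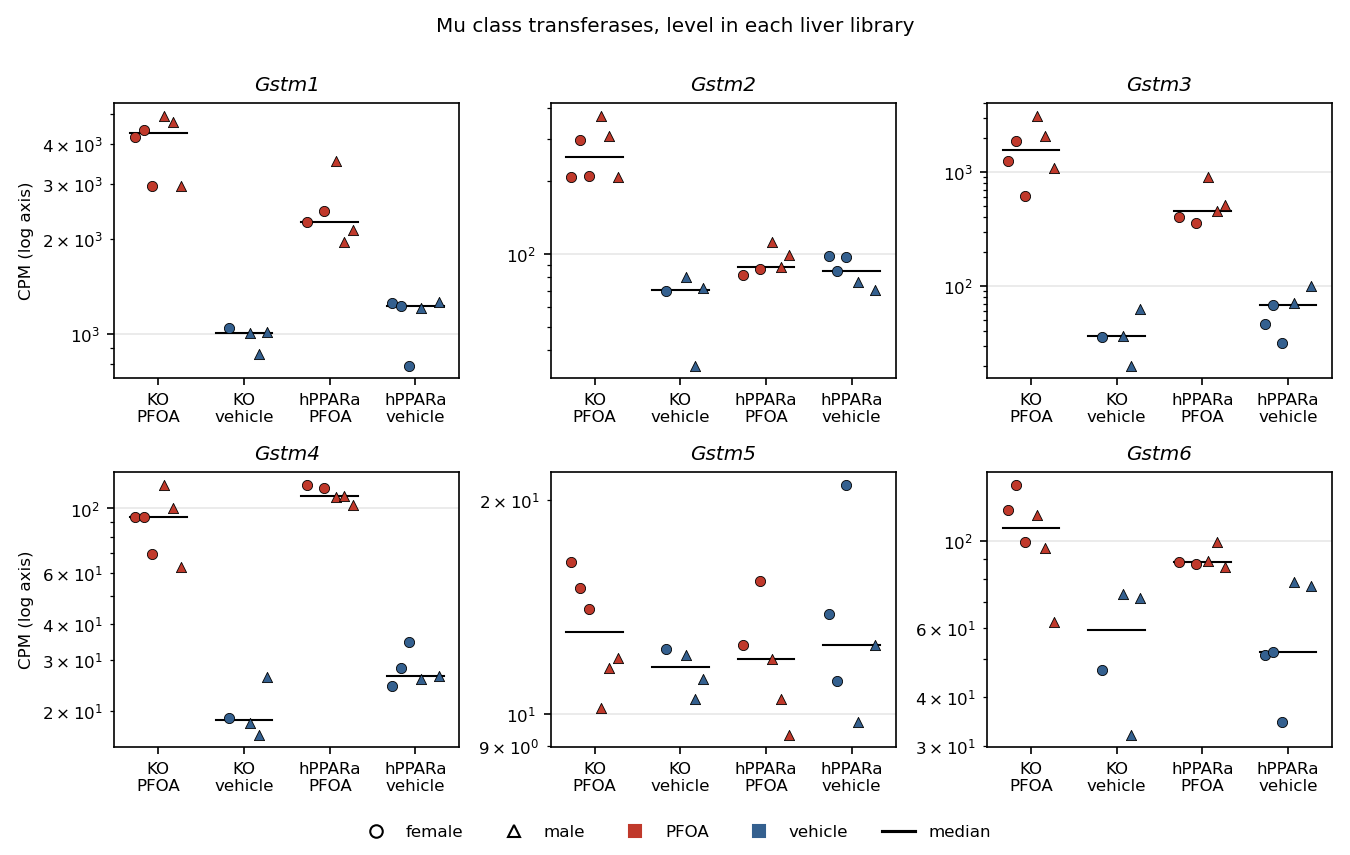
CPM of 6 mu class genes in each of the 20 libraries (log axis), by genotype and exposure, with circles for females, triangles for males and a line at the median. Gstm1, Gstm3 and Gstm4 are higher on PFOA in both genotypes, and Gstm2 is at 208 to 374 CPM in KO livers on PFOA and at 112 CPM or less in all other groups.

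The difference between genotypes was tested as the PFOA effect in KO minus that in hPPARa, in 1 model of all 20 libraries. It passed the test for 3 of the 32 genes, each with the larger rise in KO, where 0.443% of all tested genes were called in that direction. For Gstm2 the difference was 1.94 ± 0.31 on the log2 scale (adjusted p = 0.00563), and for Gstt3 it was 1.66 ± 0.26 (adjusted p = 0.0043); both passed in each of the 26 alternatives. For Gstm3 it was 2.58 ± 0.56 (adjusted p = 0.0387), a call lost in 16 of 26 alternatives at values of 2.30 to 2.80 and adjusted p up to 0.146. Gstm1 had a difference of 0.97 ± 0.26 (adjusted p = 0.0645), which passed in 7 of the alternatives, DESeq2 among them (adjusted p = 0.0129). For Gstm4 the difference was 0.17 ± 0.22 (adjusted p = 0.792). In the other direction edgeR called 0 of the 32, where 0.727% of all tested genes were called, 4 had an unadjusted p below 0.05 and DESeq2 called 1, Gpx1. The shares of all tested genes, here and below, are for edgeR calls at the adjusted p. No such share was computed for counts at an unadjusted p or by DESeq2.

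Of the 4 alpha class genes, whose products act on lipid peroxidation products and steroids, 3 rose in KO livers and 2 in hPPARa livers. Gsta1 was barely detected in KO livers on vehicle. Its raw counts were 291, 157 and 51 in males and 88, 135 and 27 in females of the KO livers on PFOA. The KO livers on vehicle had 5, 0 and 0 counts in males and 3 counts in the female. All PFOA libraries were above all vehicle libraries (log2 fold change 5.92 ± 0.98 SE, adjusted p = 0.00593), but a fitted fold against so few counts depends on the prior count, and the call was lost without the 3 mixed-sex KO libraries (adjusted p = 0.0713). In hPPARa livers Gsta1 had 5.63, 2.60 and 2.83 CPM in males and 4.67 and 3.63 CPM in females on PFOA. On vehicle it had 1.36 and 1.54 CPM in males and 0.305, 0.365 and 0.138 CPM in females. The groups stood apart (log2 fold change 2.39 ± 0.45 SE, adjusted p = 0.00323).

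Gsta2 rose in both genotypes. On PFOA the KO livers had 30.3, 31.6 and 17.9 CPM in males and 19.1, 43.6 and 16.6 CPM in females. On vehicle the KO livers had 6.81, 7.03 and 4.42 CPM in males and 6.20 CPM in the single female library. The hPPARa livers on PFOA had 29.0, 14.8 and 23.2 CPM in males and 24.1 and 21.5 CPM in females. The hPPARa livers on vehicle had 9.29 and 9.59 CPM in males and 2.92, 4.44 and 2.21 CPM in females. No PFOA library overlapped a vehicle library of its genotype, and Gsta2 rose 4.34-fold in KO (log2 fold change 2.12 ± 0.34 SE, adjusted p = 0.00463) and 3.96-fold in hPPARa (log2 fold change 1.99 ± 0.34 SE, adjusted p = 0.00345). The difference between them was 0.13 ± 0.51 (adjusted p = 0.94). Of the 50-base windows of the Gsta1 transcript, 89.7% also occur in another gene, and of Gsta2 64.2%, so reads of these genes could have been split or lost in counting. The gene that shares most with Gsta1 is Gm3776, with 82.9% of the windows, and with Gsta2 it is Gsta1, with 44.8%. The sum of Gsta1 and Gsta2 given below leaves out Gm3776 and does not settle reads shared with it. Gsta1 alone had a difference between genotypes of 3.53 ± 1.21 (adjusted p = 0.188), with 3.03 to 4.39 when 1 library was left out and a call with the replicate block (3.47, adjusted p = 0.0443). Summed before the fit, Gsta1 and Gsta2 rose by 2.46 ± 0.39 on the log2 scale in KO (adjusted p = 0.00513) and 2.05 ± 0.36 in hPPARa (adjusted p = 0.00486), with a difference of 0.41 ± 0.55 (adjusted p = 0.802).

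Gsta3, the alpha class gene with the most counts, passed the test in neither genotype. The KO livers had 1601, 1414 and 979 CPM in males and 1454, 1762 and 1502 CPM in females on PFOA. They had 1042, 876 and 1378 CPM in males and 1115 CPM in the single female library on vehicle. The ranges overlapped (log2 fold change 0.35 ± 0.16 SE, adjusted p = 0.17). On PFOA the hPPARa livers had 944, 1163 and 1562 CPM in males and 1171 and 1236 CPM in females. With vehicle water they had 1430 and 1679 CPM in males and 885, 1095 and 994 CPM in females. These ranges overlapped as well (log2 fold change −0.04 ± 0.15 SE, adjusted p = 0.887). Gsta4, which conjugates the lipid aldehyde 4-hydroxynonenal, ran from 66 to 149 CPM on PFOA against 41.7 to 68.6 CPM on vehicle in KO livers and rose (log2 fold change 0.95 ± 0.24 SE, adjusted p = 0.0271), a call lost in 6 of 18 alternatives (adjusted p up to 0.071). In hPPARa livers it ran from 69 to 109 CPM on PFOA against 65.1 to 93.1 CPM on vehicle (log2 fold change 0.29 ± 0.13 SE, adjusted p = 0.117).

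In the theta class, an old branch of the family that acts on small halogenated compounds and peroxides, all 3 genes rose in KO livers and 2 in hPPARa livers. Gstt3 showed the widest change, with 215, 219 and 147 CPM in males and 277, 312 and 262 CPM in females in KO livers on PFOA. Without PFOA the KO livers had 19.97, 15.2 and 18.7 CPM in males and 52.1 CPM in the single female library. The lowest PFOA library was well clear of the highest vehicle library, which was the female, and the rise was 8.40-fold (log2 fold change 3.07 ± 0.22 SE, adjusted p = 1.06e-05). The hPPARa livers had 124, 105 and 131 CPM in males and 153 and 135 CPM in females on PFOA. They had 36.0 and 40.0 CPM in males and 46.7, 76.1 and 70.0 CPM in females on vehicle. These groups did not overlap, and the rise was 2.64-fold (log2 fold change 1.40 ± 0.15 SE, adjusted p = 2.84e-05). Of the 50-base windows of Gstt3, 26.0% are shared with the predicted gene Gm20441.

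Gstt2 rose in both genotypes as well. In KO livers it had 129, 127 and 122 CPM in males and 126, 172 and 135 CPM in females on PFOA. The KO vehicle libraries had 89.5, 55.3 and 40.4 CPM in males and 95.7 CPM in the single female library. Among hPPARa livers it had 330, 259 and 252 CPM in males and 272 and 235 CPM in females on PFOA. The hPPARa vehicle group had 148 and 96.0 CPM in males and 149, 143 and 107 CPM in females. PFOA and vehicle stood apart in each genotype, with a 1.84-fold rise in KO (log2 fold change 0.88 ± 0.20 SE, adjusted p = 0.0172) and a 2.09-fold rise in hPPARa (log2 fold change 1.06 ± 0.15 SE, adjusted p = 0.000223).

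Gstt1 is the theta class gene with the most counts. Its KO libraries had 398, 397 and 312 CPM in males and 486, 523 and 434 CPM in females on PFOA. Those on vehicle had 286, 216 and 216 CPM in males and 293 CPM in the single female library. They did not overlap (log2 fold change 0.66 ± 0.12 SE, adjusted p = 0.00336). The hPPARa libraries had 411, 369 and 398 CPM in males and 420 and 387 CPM in females on PFOA. On vehicle they had 329 and 315 CPM in males and 362, 383 and 422 CPM in females. Here the ranges overlapped (log2 fold change 0.17 ± 0.10 SE, adjusted p = 0.234). For Gstt1 the difference between genotypes did not pass the main test, and passed in 1 of 26 alternatives, DESeq2 (0.48, adjusted p = 0.0381). On vehicle all 3 theta class genes were lower in KO than in hPPARa livers, as given below. Without the 3 mixed-sex KO libraries, the KO calls of Gstt1 and Gstt2 were lost (adjusted p = 0.0942 and 0.0958), while that of Gstt3 passed.

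**Figure D4:**
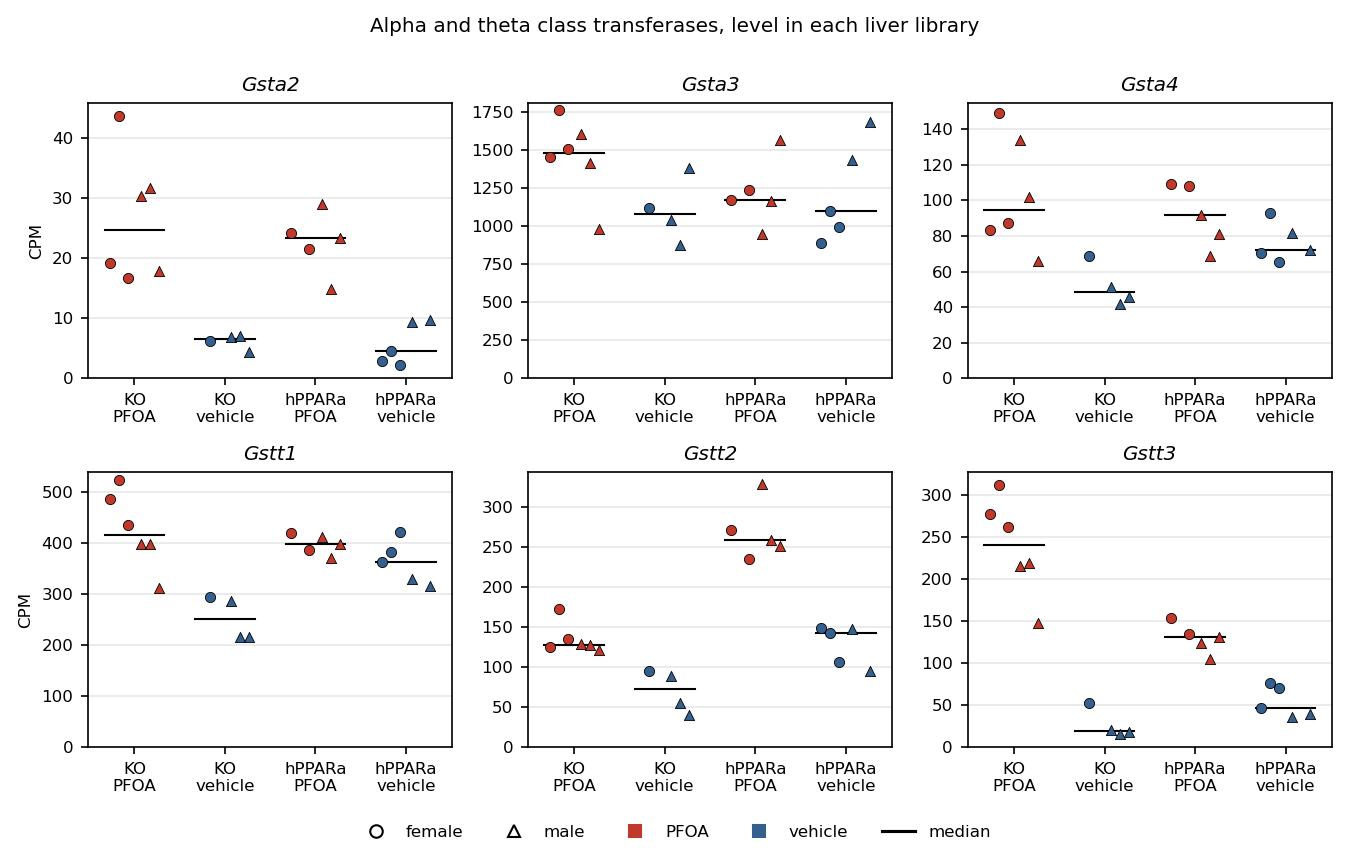
CPM of 3 alpha class and 3 theta class genes in each of the 20 libraries, by genotype and exposure, with circles for females, triangles for males and a line at the median; each axis starts at 0. Gsta2, Gstt2 and Gstt3 are higher on PFOA in both genotypes without overlap, and Gstt1 stands apart by exposure in KO livers alone.

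Gstp1, the pi class transferase, is known in mouse liver as a male-biased gene. Males against females had a log2 fold change of 1.40 ± 0.38 (adjusted p = 0.0853) in KO and 1.65 ± 0.39 (adjusted p = 0.0602) in hPPARa livers, neither past the threshold by edgeR, while DESeq2 called both (adjusted p = 0.005 and 0.00175). In males it had 287, 285 and 340 CPM in KO livers on PFOA, against 726, 505 and 492 CPM in KO livers on vehicle. Males with the human receptor had 317, 192 and 165 CPM on PFOA, against 546 and 312 CPM on vehicle. In females it had 199, 186 and 115 CPM in KO livers on PFOA, against 84.1 CPM in the 1 KO library on vehicle. Females with the human receptor had 135 and 134 CPM on PFOA, against 73.9, 80.2 and 65.3 CPM on vehicle. The male libraries were lower on PFOA and the female libraries higher, with 1 male overlap in hPPARa.

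Over both sexes Gstp1 passed the test in neither genotype, with log2 fold changes of −0.39 ± 0.37 in KO (adjusted p = 0.537) and −0.04 ± 0.38 in hPPARa (adjusted p = 0.954). Without KO female vehicle replicate 1 the KO value was −0.92 and passed (adjusted p = 0.021). Within KO males it fell (log2 fold change −0.91 ± 0.21 SE, adjusted p = 0.0233), a call lost in 5 of 16 alternatives (adjusted p up to 0.0979). Within hPPARa males its log2 fold change was −0.93 ± 0.28 (adjusted p = 0.0798) and within hPPARa females 0.87 ± 0.29 (adjusted p = 0.0631). The PFOA effect in hPPARa males minus that in females was −1.79 ± 0.40 (adjusted p = 0.206 by edgeR and 0.000431 by DESeq2), with adjusted p between 2.09e-07 and 0.664 over the alternatives. No such test was run in KO livers, where 1 female library was on vehicle. Gstp2 reached at most 1.82 CPM and passed in neither genotype. Of the 50-base windows, 62.3% of Gstp1 and 72.6% of Gstp2 are shared between genes, and the summed counts of both gave −0.39 in KO and −0.04 in hPPARa.

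**Figure D5:**
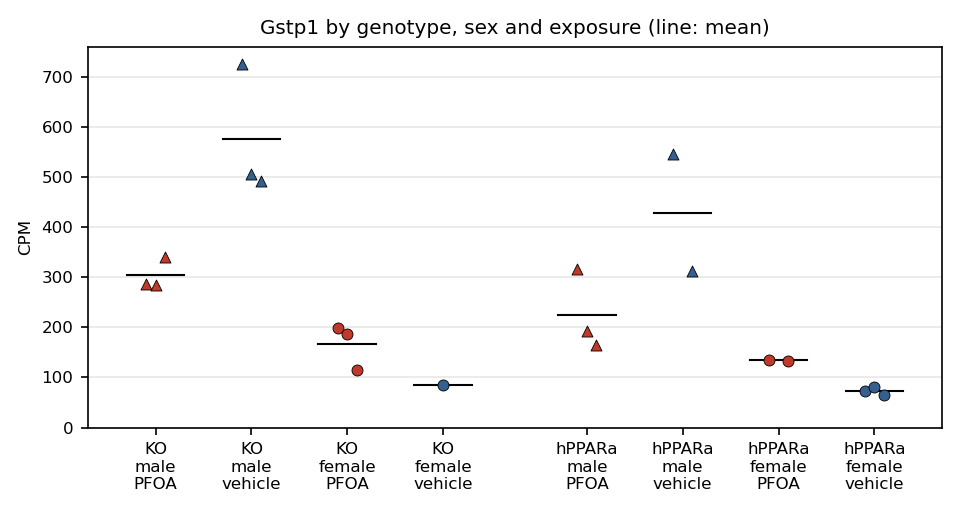
CPM of Gstp1 in each library by genotype, sex and exposure, with triangles for males, circles for females and a line at the mean of each group. KO males on PFOA lie at 285 to 340 CPM, below the 492 to 726 CPM of KO males on vehicle, while females on PFOA lie above females on vehicle in both genotypes.

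Among the remaining transferases few values moved. Gstz1, the zeta class enzyme of tyrosine breakdown, had 942, 1025 and 947 CPM in males and 972, 1024 and 1090 CPM in females in KO livers on PFOA. Its KO vehicle libraries had 1077, 906 and 1014 CPM in males and 947 CPM in the single female library. With the human receptor it had 844, 1010 and 920 CPM in males and 1030 and 987 CPM in females on PFOA. The vehicle libraries there had 1021 and 991 CPM in males and 767, 945 and 1087 CPM in females. The groups overlapped in both genotypes, with log2 fold changes of 0.01 ± 0.10 in KO and −0.01 ± 0.11 in hPPARa (adjusted p = 0.949 and 0.967). Gstk1, the kappa class enzyme of mitochondria and peroxisomes, ran from 65 to 89.8 CPM on PFOA against 87.6 to 111 CPM on vehicle in KO livers and fell (log2 fold change −0.43 ± 0.11 SE, adjusted p = 0.0182), a call lost in 3 of 18 alternatives (adjusted p up to 0.0595). In hPPARa livers its log2 fold change was −0.02 ± 0.09 (adjusted p = 0.925). Gstcd, named for a transferase-like C-terminal domain, ran from 4.46 to 5.62 CPM on PFOA against 2.66 to 4.16 CPM on vehicle in hPPARa livers and rose (log2 fold change 0.61 ± 0.16 SE, adjusted p = 0.0141), a call lost without either hPPARa female PFOA library (adjusted p = 0.0549 and 0.0542). In KO livers Gstcd had a log2 fold change of 0.41 ± 0.21 (adjusted p = 0.221). The omega class genes Gsto1 and Gsto2 passed in neither genotype, and Gsto2 did not exceed 0.701 CPM.

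Mgst1, the membrane-bound transferase of liver endoplasmic reticulum and the microsomal gene with the most counts, had 3383, 3427 and 3225 CPM in males and 3164, 3301 and 2768 CPM in females in KO livers on PFOA. The KO livers on vehicle had 3197, 2748 and 3338 CPM in males and 1629 CPM in the single female library. With the human receptor there were 4156, 3845 and 3439 CPM in males and 3155 and 2919 CPM in females on PFOA. On vehicle there were 3035 and 3571 CPM in males and 2365, 2311 and 2712 CPM in females. The ranges overlapped in both genotypes, with log2 fold changes of 0.36 ± 0.15 in KO (adjusted p = 0.117) and 0.25 ± 0.11 in hPPARa (adjusted p = 0.106). The KO value was 0.51 and passed with equal weight for the sexes (adjusted p = 0.0077), passed with no filter on low counts (adjusted p = 0.0253), and was 0.12 without KO female vehicle replicate 1. Mgst3 ran from 10.3 to 30.4 CPM on PFOA against 9.93 to 25.8 CPM on vehicle in KO livers and from 14.4 to 47.5 CPM against 18.2 to 37.5 CPM in hPPARa livers, and passed in neither.

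Of the 4 tested genes of synthesis, recycling and turnover, Gsr, glutathione reductase, which restores the reduced form with NADPH, rose in both genotypes. It ran from 53.4 to 70.9 CPM on PFOA against 38.6 to 51.4 CPM on vehicle in KO livers (log2 fold change 0.50 ± 0.11 SE, adjusted p = 0.00814), and from 67 to 74.4 CPM against 38.2 to 50.4 CPM in hPPARa livers (log2 fold change 0.59 ± 0.08 SE, adjusted p = 0.000197). The ranges did not overlap, but the KO call was lost without KO female vehicle replicate 1 (adjusted p = 0.0611) and without the 3 mixed-sex KO libraries (adjusted p = 0.198). Gss, glutathione synthetase, had 61.6, 54.7 and 50.6 CPM in males and 56.4, 60.5 and 58.4 CPM in females in KO livers on PFOA. The KO livers on vehicle had 55.7, 57.2 and 66.2 CPM in males and 47.7 CPM in the single female library. In hPPARa livers on PFOA it had 63.4, 64.5 and 61.7 CPM in males and 57.0 and 61.6 CPM in females. The hPPARa livers on vehicle had 62.6 and 58.0 CPM in males and 65.1, 60.8 and 75.3 CPM in females. PFOA and vehicle overlapped in both genotypes, with log2 fold changes of 0.03 ± 0.10 in KO and −0.06 ± 0.09 in hPPARa (adjusted p = 0.893 and 0.674).

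Ggct and Chac2, enzymes of the γ-glutamyl cycle inside the cell, moved in hPPARa livers in opposite directions. Ggct, γ-glutamylcyclotransferase, ran from 5.54 to 9.88 CPM on PFOA against 3.12 to 10.3 CPM on vehicle (log2 fold change 0.62 ± 0.21 SE, adjusted p = 0.0448), a call lost in 8 of 17 alternatives (adjusted p up to 0.131). Chac2, which cleaves glutathione itself, ran from 17.7 to 27.4 CPM on PFOA against 25.5 to 31.9 CPM on vehicle and fell (log2 fold change −0.47 ± 0.12 SE, adjusted p = 0.0104), a call lost without hPPARa female PFOA replicate 1 (adjusted p = 0.0532). In KO livers the log2 fold changes were −0.03 ± 0.19 for Ggct (adjusted p = 0.936) and 0.15 ± 0.13 for Chac2 (adjusted p = 0.482). Neither gene passed the test of the difference between genotypes, with −0.66 ± 0.29 for Ggct (adjusted p = 0.306) and 0.62 ± 0.18 for Chac2 (adjusted p = 0.106).

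The glyoxalases detoxify methylglyoxal through a glutathione adduct. Hagh, the second enzyme of the pair and the one with more counts, had 182, 186 and 187 CPM in males and 207, 211 and 185 CPM in females in KO livers on PFOA. Its KO vehicle libraries had 249, 244 and 217 CPM in males and 153 CPM in the single female library. The hPPARa livers on PFOA had 221, 230 and 213 CPM in males and 179 and 180 CPM in females. With vehicle the hPPARa livers had 261 and 254 CPM in males and 221, 207 and 232 CPM in females. The groups overlapped in both genotypes, and the call in hPPARa (log2 fold change −0.26 ± 0.08 SE, adjusted p = 0.0394) was lost in 12 of 17 alternatives (adjusted p up to 0.177), with −0.12 ± 0.13 in KO (adjusted p = 0.583). Without KO female vehicle replicate 1 the KO value was −0.35 and passed (adjusted p = 0.048). Glo1, the first enzyme, ran from 151 to 206 CPM on PFOA against 99.5 to 156 CPM on vehicle in KO livers (log2 fold change 0.47 ± 0.13 SE, adjusted p = 0.0264), a call lost in 5 of 18 alternatives. Its log2 fold change was 0.19 without the 3 mixed-sex KO libraries (adjusted p = 0.509) and 0.32 without KO female vehicle replicate 1 (adjusted p = 0.153). In hPPARa livers it was 0.07 ± 0.10 (adjusted p = 0.622).

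Of the glutathione peroxidases, Gpx1, the main cytosolic form, had 1405, 1598 and 1521 CPM in males and 1405, 1439 and 1648 CPM in females in KO livers on PFOA. Those on vehicle had 1613, 2046 and 1645 CPM in males and 1650 CPM in the single female library. Livers with the human receptor had 1951, 1858 and 1782 CPM in males and 1969 and 1898 CPM in females on PFOA. On vehicle these had 1703 and 1800 CPM in males and 1322, 1688 and 1334 CPM in females. The ranges overlapped in both genotypes and neither change passed the test, at −0.20 ± 0.11 (adjusted p = 0.232) in KO and 0.25 ± 0.11 (adjusted p = 0.123) in hPPARa. Gpx4, which reduces lipid hydroperoxides in membranes, rose in both genotypes. It ran from 38.6 to 54.9 CPM on PFOA against 28.5 to 38.2 CPM on vehicle in KO livers (log2 fold change 0.45 ± 0.10 SE, adjusted p = 0.0126), a call lost without the 3 mixed-sex KO libraries (adjusted p = 0.178), and from 57.7 to 83.1 CPM against 44.4 to 59.5 CPM in hPPARa livers (log2 fold change 0.47 ± 0.12 SE, adjusted p = 0.00998). Of its 50-base windows 61.7% also occur in a pseudogene copy. Gpx3, the secreted form, ran from 2.53 to 5.94 CPM on PFOA against 5.13 to 7.67 CPM on vehicle in hPPARa livers and fell (log2 fold change −0.86 ± 0.24 SE, adjusted p = 0.0229), a call lost without either hPPARa female PFOA library. In KO livers it ran from 4.103 to 7.73 CPM on PFOA against 4.999 to 12.7 CPM on vehicle (log2 fold change −0.70 ± 0.24 SE, adjusted p = 0.0774). The KO value passed with no filter on low counts (−0.69, adjusted p = 0.000475) and without KO male vehicle replicate 2 (−0.85, adjusted p = 0.0328). For Gpx3 the difference between genotypes passed neither in the main test nor in any of 26 alternatives.

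Of the 32 genes, 11 were higher in every PFOA library than in every vehicle library of KO livers, where 5.67% of all tested genes stood apart in this way. In hPPARa livers there were 10 such genes, where the share of all tested genes was 8.64%. In neither genotype was one of the 32 lower in every PFOA library, beside 3.97% of all tested genes in KO and 5.67% in hPPARa livers.

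Per kilobase of transcript, which allows levels to be set between genes, Mgst1 had the highest median of the genes compared here in every group but KO livers on PFOA, where Gstm1 did. The length used was that of the longest protein-coding transcript of each gene, which need not be the form present in liver. The order of genes depends on that choice. The median was 2800 CPM per kilobase for Mgst1 in KO livers on PFOA against 2550 on vehicle, and 2950 against 2320 in hPPARa livers. For Gstm1 it was 3360 CPM per kilobase against 781 in KO livers, and 1760 against 949 in hPPARa livers. Gstm3 had a median of 1190 CPM per kilobase on PFOA against 27.7 on vehicle in KO livers, so that on PFOA it lay near Gsta3, at 1010, and Gpx1, at 1380, and in hPPARa livers 348 against 51.8. Gpx1 was above Gstm1 on vehicle, with a median of 1540 CPM per kilobase in KO and 1570 in hPPARa livers. The ranges of Gstm3, Gsta3 and Gpx1 over the KO libraries on PFOA, at 471 to 2380, 672 to 1210 and 1310 to 1540 CPM per kilobase, overlapped between Gstm3 and each of the others.

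Within one sex, 10 of the 32 genes rose and 2 fell in KO males, where 5.63% of all tested genes rose and 3.46% fell. The 2 that fell were Gstp1 and Gstk1. In hPPARa males 8 rose and 0 fell by edgeR, where 5.30% and 2.90% of all tested genes did, and 2 had an unadjusted p below 0.05 in the lower direction. In hPPARa females 12 rose and 2 fell, where 10.5% and 7.87% of all tested genes did. Gsta2, for one, had a log2 fold change of 1.24 ± 0.29 in hPPARa males (adjusted p = 0.0222) and 2.82 ± 0.29 in hPPARa females (adjusted p = 0.000161). The call in males was lost with the replicate block (adjusted p = 0.0621) and without hPPARa male vehicle replicate 1 or 2 or hPPARa male PFOA replicate 3 (adjusted p = 0.165, 0.133 and 0.0559). The PFOA effect in males minus that in females passed the test by edgeR for 0 of the 32 genes, where 0.104% of all tested genes passed. At an unadjusted p below 0.05 there were 7, of which 6 were lower in males, and DESeq2 called 3, namely Gsta1, Gsta2 and Gstp1. The share of all tested genes under these looser rules was not computed.

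Males and females with the exposure as a term differed in 2 of the 32 genes in KO livers, both lower in males, where 2.15% of all tested genes were lower. Gstt3 was lower by a log2 fold change of −0.89 ± 0.19 (adjusted p = 0.0267) and Mgst3 by −0.98 ± 0.15 (adjusted p = 0.00551). Without KO female vehicle replicate 1 neither passed, with −0.54 for Gstt3 (adjusted p = 0.16) and −0.86 for Mgst3 (adjusted p = 0.0708). In hPPARa livers edgeR called 0 of the 32, where 3.48% of all tested genes were called, with 13 at an unadjusted p below 0.05 and 7 called by DESeq2. The 3.48% is for edgeR calls alone and is not the share to set beside the 13 or the 7.

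On vehicle, KO livers differed from hPPARa livers in 5 of the 32 genes, all lower in KO, where 1.76% of all tested genes were lower. They were Gstt1, Gstt2, Gstt3, Chac2 and Gpx4. Each genotype has its own count table, so in this comparison genotype and table cannot be told apart. The call of Gstt1 (−0.42, adjusted p = 0.0401) was lost in 13 of 26 alternatives, 12 of which left out 1 library (adjusted p up to 0.218 over all). Gstt3 had a log2 fold change of −0.85 (adjusted p = 0.0202) and Gstt2 of −0.81 (adjusted p = 0.0283). Chac2 had −0.53 (adjusted p = 0.0331), and −0.31 without KO female vehicle replicate 1 (adjusted p = 0.257). Without the 3 mixed-sex KO libraries, Gstt3 alone was called. By edgeR 0 of the 32 were higher in KO, where 2% of all tested genes were, and 1 had an unadjusted p below 0.05 in that direction.

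Genes around the 34 were followed as lists. Over all tested genes, 7.41% rose and 6.36% fell in KO livers, and 12.8% rose and 9.76% fell in hPPARa livers. The counts of each list, here and below, are to be read beside these shares, and no list was tested as a set. Of 11 tested genes of glutathione synthesis and cysteine supply, 2 rose and 1 fell in KO livers, and 1 rose and 4 fell in hPPARa livers. Gclc, the catalytic subunit of glutamate-cysteine ligase that limits glutathione synthesis, rose in both (log2 fold change 0.98 ± 0.17 SE, adjusted p = 0.00229) and (log2 fold change 1.12 ± 0.12 SE, adjusted p = 2.69e-05), in KO and hPPARa in that order. Its modifier subunit Gclm passed in neither, at 0.26 ± 0.14 (adjusted p = 0.258) in KO and −0.18 ± 0.11 (adjusted p = 0.287) in hPPARa. Cdo1, which oxidises cysteine, fell in hPPARa (log2 fold change −0.90 ± 0.13 SE, adjusted p = 0.000345) and was at 0.02 ± 0.16 (adjusted p = 0.957) in KO, and the difference passed the test (log2 fold change 0.91 ± 0.22 SE, adjusted p = 0.0423).

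Of 11 tested genes of glutathione breakdown and mercapturate formation, 3 rose and 4 fell in KO livers, and 3 rose and 3 fell in hPPARa livers. Oplah, which opens 5-oxoproline, rose by 0.61 ± 0.11 on the log2 scale in KO (adjusted p = 0.00311) and 1.20 ± 0.11 in hPPARa (adjusted p = 9.29e-06). Acy1, an aminoacylase, had −0.74 ± 0.10 in KO (adjusted p = 0.000448) and −0.56 ± 0.11 in hPPARa (adjusted p = 0.00232). Of the other peroxidases and redoxins, 3 of 12 tested rose and 1 fell in KO livers, and 3 of 11 rose and 1 fell in hPPARa livers. Srxn1, sulfiredoxin, rose by 1.31 ± 0.19 in KO (adjusted p = 0.00141) and 1.19 ± 0.09 in hPPARa (adjusted p = 1.89e-06).

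Of 6 tested genes of NADPH supply, 1 rose in KO livers and 4 in hPPARa livers. Pgd, an enzyme of the pentose phosphate pathway, rose in hPPARa (log2 fold change 0.61 ± 0.12 SE, adjusted p = 0.00219) and was at 0.55 ± 0.21 (adjusted p = 0.12) in KO. The 1 that rose in KO was Idh1, named after its values were seen. Of 7 tested exporters of conjugates, 3 rose in each genotype. Abcc3 rose by 3.01 ± 0.24 in KO (adjusted p = 3.81e-05) and 3.66 ± 0.38 in hPPARa (adjusted p = 0.000241), and Abcc4 by 1.84 ± 0.30 (adjusted p = 0.00189) and 3.09 ± 0.20 (adjusted p = 3.39e-07) in the same order. None of 3 tested glutathione enzymes of prostaglandin and leukotriene metabolism passed in either genotype.

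Genes known as readouts of the receptors named above were measured in the same libraries. Those of CAR and PXR rose in 4 of 4 cases in both genotypes. Cyp3a11 rose by 3.74 ± 0.22 on the log2 scale in KO (adjusted p = 9.45e-07) and 2.56 ± 0.18 in hPPARa (adjusted p = 1e-06), and the difference passed the test (log2 fold change 1.18 ± 0.27 SE, adjusted p = 0.0383). Of 6 NRF2 readouts 4 rose in KO and 3 in hPPARa livers, among them Nqo1, a quinone reductase, by 1.07 ± 0.15 in KO (adjusted p = 0.000664) and 1.42 ± 0.12 in hPPARa (adjusted p = 4.59e-06). The PPARα readouts rose in 4 of 4 cases in both genotypes, with a median log2 fold change of 4.754 in KO and 5.594 in hPPARa livers. The difference between genotypes passed the test for 2 of the 4, with the smaller rise in KO. Ehhadh, an enzyme of peroxisomal fatty acid oxidation, rose by 1.44 ± 0.20 in KO (adjusted p = 0.000827) and 3.96 ± 0.13 in hPPARa (adjusted p = 1.09e-09), and the difference passed the test (log2 fold change −2.52 ± 0.23 SE, adjusted p = 2.11e-06). Of 3 AHR readouts, 2 rose in each. The part of any receptor in the changes of the transferases was not tested.

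Markers of several, but not all, other cell types moved with PFOA in both genotypes. Beside their counts, 7.41% of all tested genes rose and 6.36% fell in KO livers, and 12.8% rose and 9.76% fell in hPPARa livers. In KO livers the 8 cholangiocyte markers summed to 36.5 to 76.6 CPM on PFOA against 83.2 to 231 CPM on vehicle, and 6 of 8 fell. The 8 neutrophil markers summed to 90.0 to 327 CPM on PFOA against 0.82 to 3.65 CPM on vehicle. Of these, 3 were tested and 1 rose, S100a8, with a log2 fold change of 8.86, while the median of the 3 was 0.296 and Ly6g, a defining marker, was at 0 in the KO livers on PFOA. In hPPARa livers the cholangiocyte markers summed to 38.3 to 67.0 CPM on PFOA against 49.9 to 58.6 CPM on vehicle with 0 of 7 called, and the neutrophil markers to 5.08 to 10.8 CPM against 2.35 to 3.11 CPM, with 1 of 3 tested markers higher. The 10 Kupffer cell and macrophage markers summed to 285 to 480 CPM on PFOA against 149 to 321 CPM on vehicle in KO livers, where 3 rose, and to 136 to 369 CPM against 159 to 470 CPM in hPPARa livers, where 5 fell. The 8 endothelial markers summed to 232 to 290 CPM on PFOA against 203 to 300 CPM on vehicle in KO livers, where 2 rose, and to 278 to 367 CPM against 268 to 335 CPM in hPPARa livers, where 5 rose. The 8 stellate cell markers summed to 293 to 431 CPM on PFOA against 350 to 538 CPM on vehicle in KO livers, where 3 fell, and to 284 to 437 CPM against 396 to 603 CPM in hPPARa livers, where 2 fell. The 9 hepatocyte markers summed to 68500 to 91500 CPM on PFOA against 91300 to 108000 CPM on vehicle in KO livers, where 2 fell. In hPPARa livers they summed to 86500 to 124000 CPM on PFOA against 114000 to 208000 CPM on vehicle, and 5 fell. Of the lymphocyte markers, 0 of 9 tested were called in KO livers and 0 of 7 in hPPARa livers. Of the erythroid markers, 0 of 5 were called in each genotype. The part of all these cells in the results on the 34 genes was not tested.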

How the data were processed

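The deposited files are 2 tables of raw counts per gene symbol, 1 for each genotype with 10 libraries each, which the authors made from liver RNA-seq. The submitters' processing notes name the aligner STAR 2.5.3, the counter featureCounts 1.6.1, edgeR 3.36.0 in R 4.1.0, cutadapt 1.15 and FastQC 0.11.5, with build GRCm39. The sources used here give no annotation and no strand option. The labels write the PFOA dose with the unit µm, read here as micromolar.

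Counts were fitted in R 4.3.3 with edgeR 4.0.16 (TMM scaling, filterByExpr by group, robust quasi-likelihood F test, Benjamini-Hochberg adjustment over all genes tested, threshold 0.05). PFOA was tested within each genotype with sex as a term, within each sex by group, and between genotypes in 1 model of 20 libraries. The standard error is the log2 fold change over the square root of F. CPM use the TMM factors of all 20 libraries. The fits were also run on simulated counts, and no outcome of those runs is reported or relied on here. Alternatives were DESeq2 1.42.0, other scaling, no filter, summed close copies, a replicate block, leaving out each library, and leaving out the 3 mixed-sex KO libraries.

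The 34 genes, the lists and the tests were chosen with earlier results of these data known. Values in every library are given for genes past the threshold with a log2 fold change of at least 1, and for the gene with the most CPM in each class. Of each pathway list, up to 3 genes with the smallest adjusted p may be named, with Gclc and Gclm. Promoter sequences are from RefSeq GRCm38.p6, and shared 50-base windows from GENCODE GRCm38 transcripts, not the build of the counts.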

Additional observations from a re-analysis of the deposited data

Results flagged for a closer look

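The PFOA effect differed between the genotypes for 3 genes by the test of the difference itself (KO minus hPPARa, edgeR's quasi-likelihood test with adjustment over all genes). The difference was 1.94 on the log2 scale for Gstm2, 2.58 for Gstm3 and 1.66 for Gstt3. The call of Gstm3 was lost in 16 of 26 alternatives, the replicate block among them (adjusted p = 0.055). All 6 KO libraries on PFOA were above all 4 on vehicle for each of the 3 genes, and in hPPARa livers PFOA and vehicle stood apart for Gstm3 and Gstt3 too.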

How the results depend on the processing

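No called value changed direction under any alternative. Without the 3 mixed-sex KO libraries, 7 genes were called for PFOA in KO against 14 with them, 7 against 12 in KO males, 0 against 2 for males against females in KO, and 1 against 5 for KO against hPPARa on vehicle. The only KO female library on vehicle is among these 3. Both PFOA counts of 7 therefore come from the same comparison of the remaining KO males and are not separate results. With no filter on low counts the number was 5 for the difference between genotypes (3 with the filter), 4 for the difference between the sexes in hPPARa (0), 5 for males against females in hPPARa (0) and 4 in KO (2). DESeq2 called 6, 3, 7 and 4 in the same order. Leaving out 1 library at a time gave 11 to 15 genes for PFOA in KO, 10 to 14 in hPPARa, 2 to 4 for the difference between genotypes, 4 to 11 in hPPARa males, 7 to 16 in hPPARa females, 6 to 14 in KO males, 0 to 2 for the difference between the sexes, 0 to 2 for males against females in each genotype, and 2 to 7 for KO against hPPARa on vehicle. The cause was not tested.

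Same-numbered libraries deviated from their group means with correlations of −0.145 to 0.439 (median 0.0232, n = 52 pairs), against −0.336 to 0.212 (median −0.0103, n = 102) for other numbers, and 8 of 19 libraries correlated best with their own number. True pairs need not all deviate together, and the 8 of 19 was not set against a value for unrelated numbers. These values therefore do not settle whether the numbers pair the samples. The main tests did not treat them as pairs. With the replicate block, 13 genes were called in KO, 14 in hPPARa, 4 for the difference between genotypes, 2 for males against females in hPPARa and 1 in KO. With 1 female KO library on vehicle, no test within KO females was made.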
